A study of Gallus gallus with 6 samples.

Results

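The Iroquois genes *IRX1* to *IRX6* were examined in RNA sequencing of chick head ectoderm cells that overexpressed the transcription factor Sox8 (Sox8OE) and in Control cells. The genes were taken by name, and all 6 names were found, each once, among the 24356 genes of the count table. Sox8OE cells carried pCES-Sox8-mCherry, which makes Sox8 and the red fluorescent protein mCherry, together with pTK-Lmx1aE1-EGFP, in which an otic enhancer of *LMX1A* drives green fluorescent protein. Control cells carried pCES-mCherry and pCES-EGFP, which make both colours without Sox8. In both groups the plasmids were electroporated into head fold embryos, culture at 38 °C lasted 16 to 24 hours, the otic placode of the embryo itself was cut away, and cells with both colours were sorted. There were 3 samples in each group, and whether embryos were pooled is not given in the sources used here. Sox8OE cells were therefore also selected for activity of an otic enhancer and Control cells were not, so that an effect of Sox8 and an effect of this selection cannot be told apart. The study's methods call the samples of a group biological replicates, and the labels do not say which embryos or cultures each came from.

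Iroquois genes encode homeodomain transcription factors of the TALE class, which also contains the MEIS, PBX, PKNOX and TGIF proteins. They were first described in *Drosophila*, where they act upstream of proneural genes and divide tissues into territories. Birds and mammals have 2 clusters of 3 genes, 1 with *IRX1*, *IRX2* and *IRX4* and 1 with *IRX3*, *IRX5* and *IRX6*. In vertebrate embryos these genes take part in the subdivision of the neural plate, in placode formation, and in heart, limb and retina development. No sequence is printed here, since none was at hand. No position is printed either, since the gene table at hand was of another genome assembly than the counts.

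Total counts per sample ranged from 26326573 to 46586658, and none of the 3 replicates of a group duplicated another. *SOX8*, the overexpressed gene, had 8554, 9889 and 9138 normalised counts (counts divided by the DESeq2 size factor of the sample) in Sox8OE replicates 1, 2 and 3, against 854, 1685 and 968 in Control replicates 1, 2 and 3. Its log2 fold change was 2.97 ± 0.36 (SE, DESeq2, adjusted p = 4.0e-13, n = 3 each), and the groups did not overlap. On the first principal component of all genes, which held 86.9% of the variance of the 500 most variable genes, Sox8OE replicate 1 scored -8.91 and Sox8OE replicates 2 and 3 scored 39.7 and 28.7, while Control samples scored from -26.4 to -12.2. Sox8OE replicate 1 thus had a high *SOX8* level and on this component stood nearer to the Control samples than to its own group. Values without Sox8OE replicate 1 are given beside those of the members with a fold and of the gene lists below. Counts are not divided by gene length, so levels are compared between samples and not between genes.

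*IRX1* was higher in Sox8OE than in Control cells and was the only Iroquois gene called, a call being an adjusted p under 0.05 in DESeq2 together with an absolute log2 fold change over 1.5. *IRX2* and *IRX4* of the same cluster were high in Sox8OE replicates 2 and 3 and at or below the Control level in Sox8OE replicate 1. *IRX5* lay above Control in every Sox8OE sample by a difference that did not pass the test, *IRX3* overlapped between the groups, and *IRX6* was at the limit of detection throughout. The count of 1 of 5 tested members called, higher in Sox8OE, stands beside a background of 3.32% of the 16032 tested genes called higher and 4.28% called in either direction. At an adjusted p under 0.05 alone it was again 1 of 5, against 5.24% of all tested genes. The members' log2 fold changes ranged from 0.38 to 2.69, and the median over all tested genes was 0.08.

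**Figure D1:**
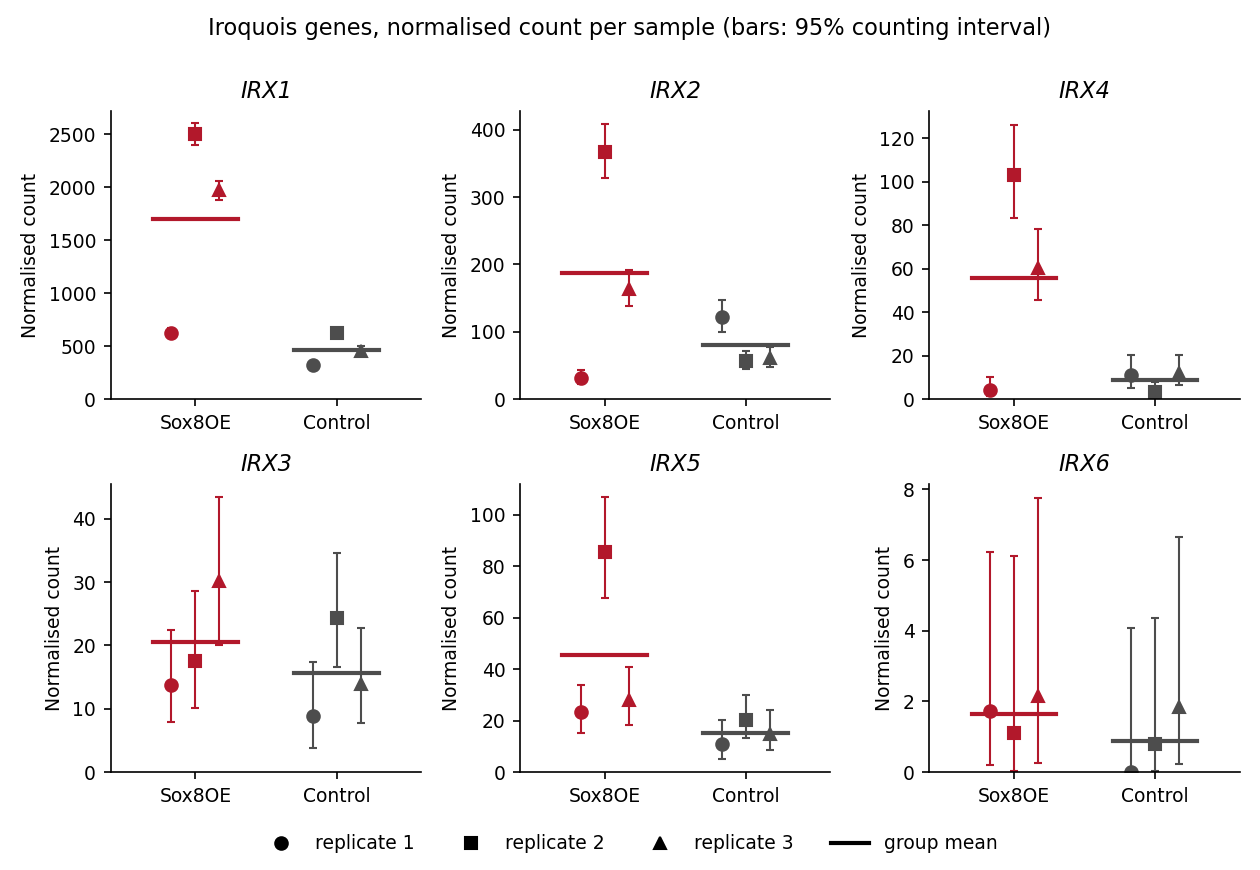
Normalised counts of the 6 Iroquois genes (vertical axes, linear, different scales) in the 3 Sox8OE samples (red, left) and the 3 Control samples (grey, right) of each panel. Points are samples, vertical bars their 95% Poisson intervals, and horizontal lines group means. Sox8OE replicate 1 (circle) lies at 622 for *IRX1*, beside the highest Control sample at 619.9, and at 31.9 for *IRX2*, below all Control samples.

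Within the first cluster, *IRX1* (ENSGALG00000030991) is a patterning gene of the hindbrain, placodes and lung. It had 722, 2276 and 1833 raw counts in Sox8OE replicates 1, 2 and 3, against 288, 790 and 494 in Control replicates 1, 2 and 3. After scaling these were 622, 2501 and 1971 normalised counts in Sox8OE cells, against 318, 619.9 and 456 in Control cells. The groups did not overlap, but the lowest Sox8OE sample and the highest Control sample were almost equal. Their 95% Poisson intervals ran from 577 to 669 normalised counts in Sox8OE replicate 1 and from 577 to 665 in Control replicate 2, so counting error alone covers that gap. With TMM factors Sox8OE replicate 1 had 655 and Control replicate 2 had 666 scaled counts, and the groups overlapped, as they also did in CPM (counts scaled to the sample total), at 16.68 in Sox8OE replicate 1 and 16.96 in Control replicate 2.

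Group means of *IRX1* were 1698 ± 969 normalised counts in Sox8OE and 465 ± 151 in Control cells (SD, n = 3 each). The difference was 3.65-fold, with a 95% interval from 1.78 to 7.47, or 1.87 ± 0.53 on the log2 scale (SE, DESeq2, adjusted p = 0.0146). Without Sox8OE replicate 1 the log2 fold change was 2.25 ± 0.32 (adjusted p = 2.6e-11, DESeq2). The call was lost in DESeq2 fits without Sox8OE replicate 2 (1.46, adjusted p = 0.146), Sox8OE replicate 3 (1.74, adjusted p = 0.105), Control replicate 1 (1.65, adjusted p = 0.151) or Control replicate 3 (1.85, adjusted p = 0.0996), and in edgeR (1.89, adjusted p = 0.188).

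*IRX2* (ENSGALG00000013193) neighbours *IRX1* and is expressed in chick hindbrain, where it takes part in forming the cerebellum. Its raw counts were 37, 334 and 152 in Sox8OE replicates 1, 2 and 3, against 110, 72 and 66 in Control replicates 1, 2 and 3. Scaled, these were 31.9, 367 and 163 normalised counts in Sox8OE cells, against 122, 56.5 and 60.9 in Control cells. The Sox8OE samples lay on both sides of Control, with 1 below and 2 above the whole Control range. The 95% Poisson interval of Sox8OE replicate 1, 22.4 to 43.9 normalised counts, did not reach that of the lowest Control sample, 44.2 to 71.2.

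*IRX2* averaged 187 ± 169 normalised counts in Sox8OE and 79.7 ± 36.4 in Control cells (SD, n = 3 each). Its log2 fold change of 1.24 ± 0.77 did not pass the test (SE, DESeq2, adjusted p = 0.325), and its 95% interval ran from -0.28 to 2.75. Without Sox8OE replicate 1 the log2 fold change was 1.73 ± 0.56 and passed both thresholds (DESeq2, adjusted p = 0.00732), and without Sox8OE replicate 2 it was 0.28 ± 0.78 (DESeq2, adjusted p = 0.925). The value for *IRX2* therefore depended on single Sox8OE samples.

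*IRX4* (ENSGALG00000022896) is best known from the chick and mouse heart, where it marks the ventricle. It had 5, 94 and 56 raw counts in Sox8OE replicates 1, 2 and 3, against 10, 4 and 13 in Control replicates 1, 2 and 3. In normalised counts these were 4.31, 103 and 60.2 in Sox8OE cells, against 11.1, 3.14 and 12 in Control cells. Sox8OE replicate 1 fell within the Control range, and Sox8OE replicates 2 and 3 lay far above it. Their 95% Poisson intervals, 83.5 to 126 and 45.5 to 78.2 normalised counts, stayed clear of the highest upper bound in Control cells, 20.5.

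Means of *IRX4* were 55.9 ± 49.6 normalised counts in Sox8OE and 8.73 ± 4.86 in Control cells (SD, n = 3 each). Its log2 fold change, 2.69 ± 1.09, was the largest of the 5 members with a fold and had the widest error (SE, DESeq2, adjusted p = 0.126). Its 95% interval, from 0.55 to 4.83, left out 0, but the p-value did not pass after adjustment over all genes. Without Sox8OE replicate 1 it was 3.23 ± 0.93 and passed both thresholds (DESeq2, adjusted p = 0.00202), and without Sox8OE replicate 2 it was 1.88 ± 1.38 (DESeq2, adjusted p = 0.664).

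In the fit without Sox8OE replicate 1, 3 of the 5 tested members were called, namely *IRX1*, *IRX2* and *IRX4*, the whole first cluster. That fit called 18.2% of all tested genes. With limma voom and sample quality weights, which gave Sox8OE replicate 1 a weight of 0.131 and the other samples 0.685 to 3.21, *IRX1* (2.26, adjusted p = 3.3e-05) and *IRX4* (2.64, adjusted p = 0.0171) were called, where 20.0% of all tested genes were. *IRX2* had an adjusted p of 0.0337 there, with a log2 fold change of 1.30. The edgeR quasi-likelihood test called 0 of 5 members and 0.276% of its genes. At an unadjusted p under 0.05 edgeR had 2 of 5 members, *IRX1* and *IRX4*, against 16.4% of all genes in edgeR. DESeq2 had the same 2, but its share of all genes at that threshold is not given here.

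**Figure D2:**
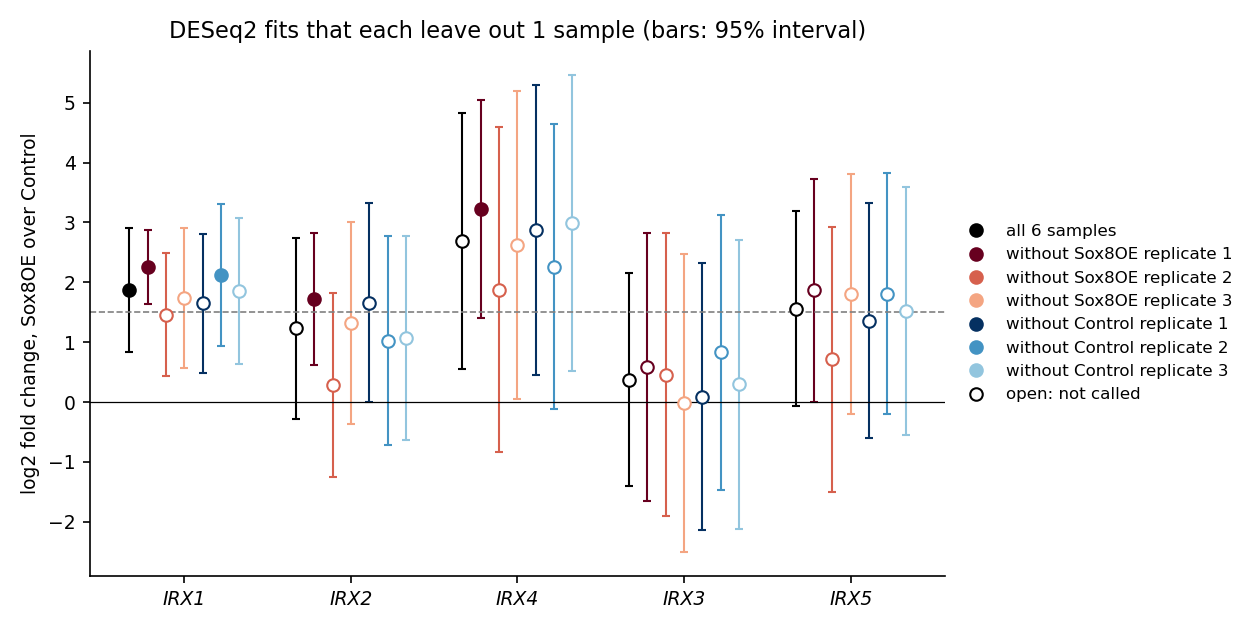
DESeq2 log2 fold changes, Sox8OE over Control, of the 5 Iroquois genes with a fold (vertical axis) with all 6 samples (black) and with each sample left out (colours). Bars are 95% intervals, filled points passed both thresholds, open points did not, and the dashed line marks 1.5. *IRX2* and *IRX4* are filled only without Sox8OE replicate 1, at 1.73 and 3.23, and *IRX1* ranges from 1.46 to 2.25.

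In the second cluster, *IRX5* (ENSGALG00000003588) is known from the mouse for its part in the heart's repolarisation gradient and in retinal bipolar cells. It had 27, 78 and 26 raw counts in Sox8OE replicates 1, 2 and 3, against 10, 26 and 16 in Control replicates 1, 2 and 3. Normalised counts were 23.3, 85.7 and 28.0 in Sox8OE cells, against 11.1, 20.4 and 14.8 in Control cells. Each Sox8OE sample lay above the highest Control sample, also with TMM factors and in CPM. The same was true, in either direction, of 19.2% of all tested genes. The gap was small, since the 95% Poisson interval of Sox8OE replicate 1 reached down to 15.3 and that of Control replicate 2 up to 29.9 normalised counts.

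For *IRX5* the means were 45.6 ± 34.8 normalised counts in Sox8OE and 15.4 ± 4.71 in Control cells (SD, n = 3 each). The log2 fold change of 1.56 ± 0.83 did not pass the test (SE, DESeq2, adjusted p = 0.250), and its 95% interval, -0.07 to 3.19, allows anything between 0.951-fold and 9.12-fold. It was 1.87 ± 0.95 without Sox8OE replicate 1 (DESeq2, adjusted p = 0.107) and 0.72 ± 1.13 without Sox8OE replicate 2 (DESeq2, adjusted p = 0.857). Unlike *IRX2* and *IRX4*, *IRX5* was called in none of the alternatives run.

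*IRX3* (ENSGALG00000042045) helps to set progenitor domains in the chick neural tube, where it opposes *OLIG2* and is itself repressed by sonic hedgehog. Its raw counts were 16, 16 and 28 in Sox8OE replicates 1, 2 and 3, against 8, 31 and 15 in Control replicates 1, 2 and 3. Normalised counts of 13.8, 17.6 and 30.1 in Sox8OE cells stood against 8.84, 24.3 and 13.8 in Control cells. The groups overlapped over most of their range, with means of 20.5 ± 8.54 in Sox8OE and 15.7 ± 7.90 in Control cells (SD, n = 3 each). The log2 fold change was 0.38 ± 0.91 (SE, DESeq2, adjusted p = 0.824) with a 95% interval from -1.40 to 2.16, so that neither a 2.64-fold decrease nor a 4.46-fold increase lies outside it. It was 0.59 ± 1.14 without Sox8OE replicate 1 (DESeq2, adjusted p = 0.724). No difference was detected in these samples.

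*IRX6* (ENSGALG00000048295), which in the mouse is used in retinal bipolar cells, had 2, 1 and 2 raw counts in Sox8OE replicates 1, 2 and 3, against 0, 1 and 2 in Control replicates 1, 2 and 3. All 6 samples were at or under a floor of 3 counts, so no fold is given. DESeq2 gave it no adjusted p. The count of 0 in Control replicate 1 allows up to 3 counts, counting error only.

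Summed over the genes, the *IRX1*, *IRX2* and *IRX4* cluster had 658, 2972 and 2194 normalised counts in Sox8OE replicates 1, 2 and 3, against 451, 679.6 and 529 in Control replicates 1, 2 and 3. The *IRX3*, *IRX5* and *IRX6* cluster had 38.8, 104 and 60.2 in Sox8OE cells, against 19.9, 45.5 and 30.5 in Control cells. In both clusters Sox8OE replicate 2 was highest and Sox8OE replicate 1 fell below the highest Control sample. The ratio of the Sox8OE to the Control mean was 3.51 for the first cluster and 2.12 for the second with all samples, and 4.67 and 2.58 without Sox8OE replicate 1. These sums describe the clusters and were not tested. The first cluster's raw counts exceeded the second's by a factor of 16.98, 28.5 and 36.4 in Sox8OE replicates 1, 2 and 3, against 22.7, 14.9 and 17.4 in Control replicates 1, 2 and 3, and these factors overlapped between the groups.

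The share that each gene took of its cluster's raw counts also overlapped between the groups. *IRX1* made up 94.5%, 84.2% and 89.8% of the first cluster in Sox8OE replicates 1, 2 and 3, against 70.6%, 91.2% and 86.2% in Control replicates 1, 2 and 3. *IRX2* made up 4.84%, 12.4% and 7.45% in Sox8OE cells, against 27.0%, 8.31% and 11.5% in Control cells, so Control replicate 1 stood out for its share of *IRX2*. *IRX4* stayed between 0.654% and 3.48% in Sox8OE and between 0.462% and 2.45% in Control cells. In the second cluster *IRX5* took 60%, 82.1% and 46.4% in Sox8OE cells, against 55.6%, 44.8% and 48.5% in Control cells, and these rest on 45, 95 and 56 counts in Sox8OE and 18, 58 and 33 counts in Control cells.

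**Figure D3:**
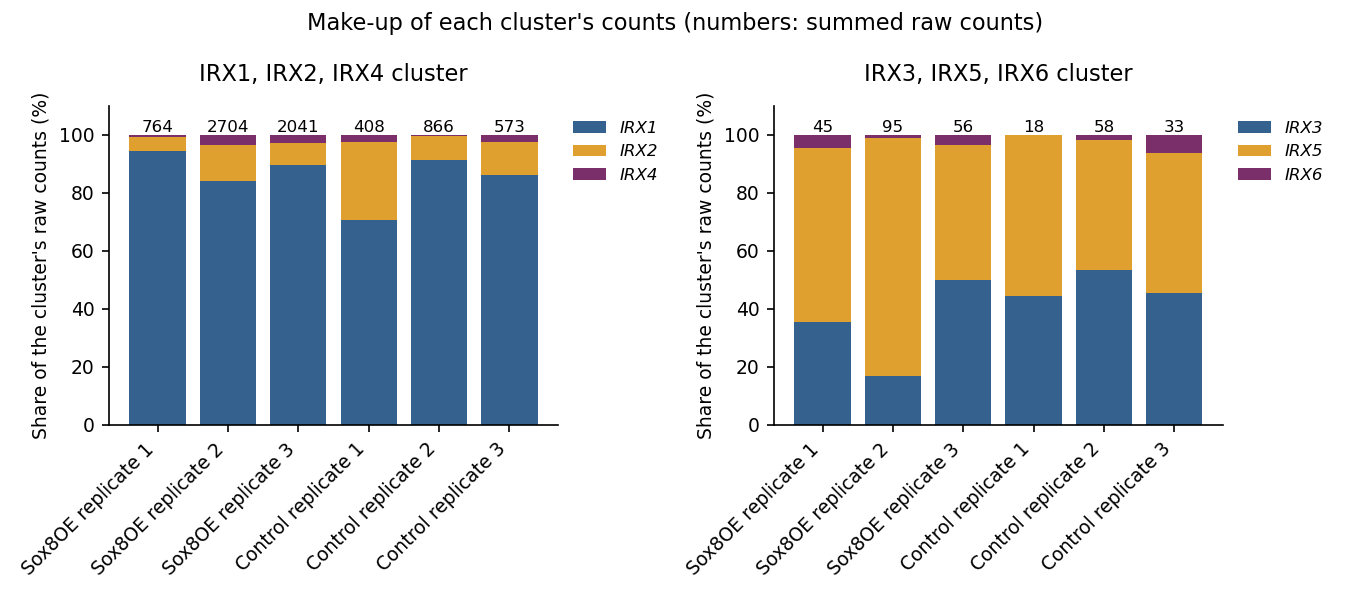
Share of each cluster's raw counts (vertical axes, percent) taken by each gene in Sox8OE replicates 1 to 3 (left) and Control replicates 1 to 3 (right), with the summed counts above the bars. *IRX1* takes between 70.6% and 94.5% of its cluster, and in the second cluster *IRX5* takes 82.1% in Sox8OE replicate 2 and between 44.8% and 60% in the other samples.

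Profiles of the members over the 6 samples were compared by the root mean square difference of their log2 normalised counts, after adding 1 and centring each gene. Being in 1 cluster did not order these differences. The closest pair was *IRX1* and *IRX5*, of different clusters, at 0.487, followed by *IRX1* and *IRX3* at 0.821, *IRX2* and *IRX4* at 0.825 and *IRX3* and *IRX5* at 0.831. *IRX1* differed by 0.890 from *IRX2* and by 1.05 from *IRX4*, and the farthest pair was *IRX3* and *IRX4* at 1.65. *IRX3*, *IRX4* and *IRX5* had few counts, and the part of counting error in their distances was not tested. These distances describe 6 samples of which 3 share a treatment, and carry no test.

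Among the 9764 named genes with a mean of at least 50 normalised counts, *HNRNPD*, which encodes an RNA-binding protein that regulates mRNA decay, had the profile most like *IRX1*, at 0.101 where the median gene was at 1.21. It had 770.0, 3397 and 2639 normalised counts in Sox8OE replicates 1, 2 and 3, against 441, 716 and 642 in Control replicates 1, 2 and 3, and was also called (log2 fold change 1.92, DESeq2 adjusted p = 0.0110). Next came *PLD1*, a phospholipase, at 0.110, and *TNKS1BP1*, a binding partner of tankyrase, at 0.123, with log2 fold changes of 1.71 and 1.78 (DESeq2 adjusted p = 0.0221 and 0.0195). All 3 put the 6 samples in the same order as *IRX1*, with Sox8OE replicate 2 highest, Sox8OE replicate 1 just above Control replicate 2, and Control replicate 1 lowest. They were picked for their nearness to *IRX1*, so a like order and a like fold change follow from that choice. The same holds for the genes named next for *IRX2*.

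The profile nearest to *IRX2* was that of *ARAP3*, which encodes a GTPase-activating protein, at 0.218 where the median gene was at 1.28. It had 15.5, 148 and 75.3 normalised counts in Sox8OE replicates 1, 2 and 3, against 75.2, 30.6 and 36.9 in Control replicates 1, 2 and 3. Like *IRX2* it was lowest in Sox8OE replicate 1 and highest in Sox8OE replicate 2. *RBM47*, an RNA-binding protein gene, and *ARHGAP45*, another GTPase-activating protein gene, followed at 0.279 each. None of these 3 was called (log2 fold changes 0.75, 1.28 and 1.46, DESeq2 adjusted p = 0.595, 0.250 and 0.308).

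The genes on either side of the clusters were not called. In the RefSeq annotation of assembly GRCg7b, used only for gene order, the first cluster runs *IRX4*, *IRX2*, *IRX1* between *NDUFS6* and *ANKS6*, and the second runs *IRX6*, *IRX5*, *IRX3* between *MMP2* and *FTO*. Of the 3 named genes on each side, 5 of 6 were matched in the count table for each cluster. Beside the first cluster, *NDUFS6*, a subunit of respiratory complex I, had 3849, 4501 and 3112 normalised counts in Sox8OE cells, against 3568, 4504 and 3401 in Control cells, and *ANKS6*, a protein of cilia, had 137, 126 and 187 in Sox8OE cells, against 208, 148 and 132 in Control cells. Their log2 fold changes were -0.0014 and -0.11 (DESeq2 adjusted p = 0.998 and 0.893), where the adjoining *IRX4* and *IRX1* had 2.69 and 1.87. *LPCAT1* (-0.04), *GALNT12* (-0.29) and *GABBR2* (-1.27) lay farther out, and the median of the 5 was -0.11.

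Beside the second cluster the median of 5 flanking genes was -0.70, and all 5 log2 fold changes were below 0. *MMP2*, a matrix metalloproteinase, had 1434, 312 and 296 normalised counts in Sox8OE cells, against 2268, 1401 and 1811 in Control cells (log2 fold change -1.42, DESeq2 adjusted p = 0.144). *FTO*, an RNA demethylase gene whose introns hold long-range enhancers of *IRX3* and *IRX5* in the mouse and human, had 245, 121 and 159 in Sox8OE cells, against 261, 132 and 338 in Control cells (-0.48, adjusted p = 0.582, DESeq2). *LPCAT2*, *RPGRIP1L* and *AKTIP* had -1.09, -0.23 and -0.70. DESeq2 called 0 of 10 flanking genes in all, with 3 at an unadjusted p under 0.05, edgeR called 0, and limma voom with sample quality weights called 2. Over all tested genes these methods called 4.28%, 0.276% and 20.0%, in that order. The DESeq2 share of all genes at an unadjusted p under 0.05 is not given here. Without Sox8OE replicate 1, *MMP2* (-2.60, DESeq2 adjusted p = 8.2e-18) and *LPCAT2* (-1.54, DESeq2 adjusted p = 2.5e-05) were lower in Sox8OE cells and passed both thresholds, while the Iroquois genes between *MMP2* and *FTO* were not called. Of all tested genes, 18.2% were called in that fit.

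**Figure D4:**
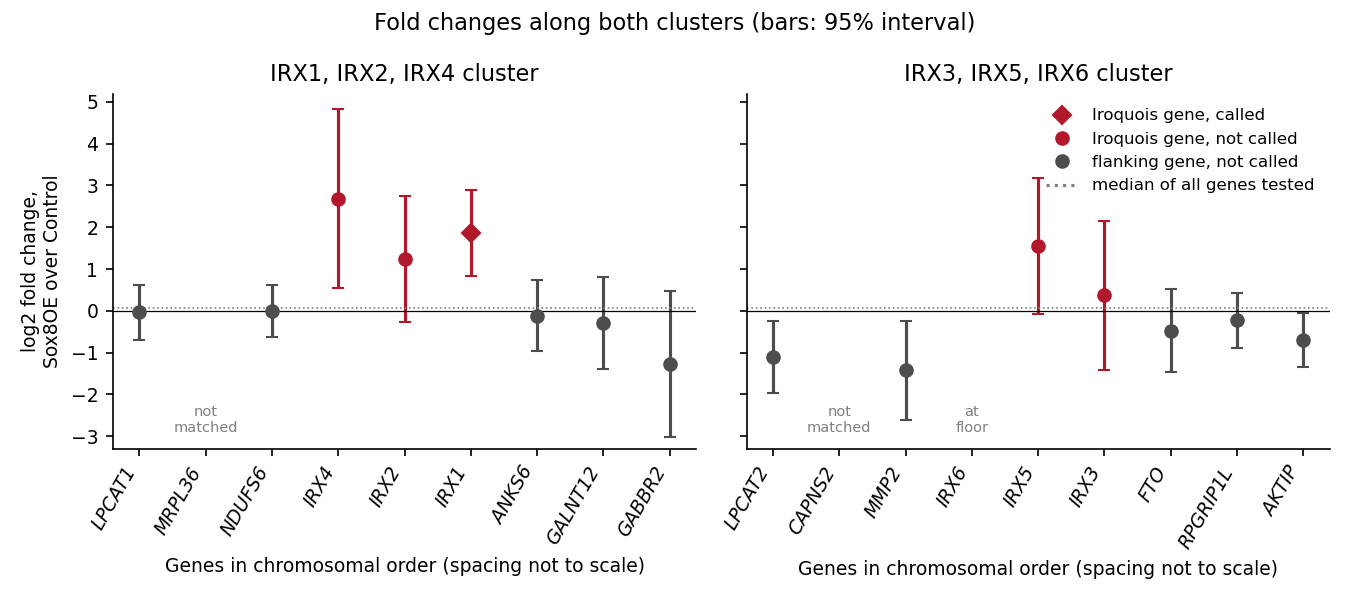
DESeq2 log2 fold changes, Sox8OE over Control (vertical axis), of Iroquois genes (red) and flanking genes (grey) in chromosomal order, not to scale. Bars are 95% intervals, the diamond is the 1 gene called, and the dotted line is the median of all genes tested. The 5 Iroquois genes with a fold lie between 0.38 and 2.69, and the 10 flanking genes between -1.42 and -0.0014.

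Other genes of the TALE class, several of which encode partners of HOX proteins, were not called. Of 12 listed, 9 were tested and 0 were called by DESeq2 in either direction, with 0 at an unadjusted p under 0.05, and their median log2 fold change was -0.34. edgeR called 0 and limma voom with sample quality weights called 1. The shares of all tested genes called were 4.28% in DESeq2, 0.276% in edgeR and 20.0% in limma voom. For the unadjusted p in DESeq2 no such share is given here. The listed gene with the smallest p was *MKX*, known from tendon (unadjusted p = 0.0893, DESeq2). It had no adjusted p and so was not among the 9 tested. *MKX* had no count in any Sox8OE sample, which allows up to 3 counts in each, and averaged 5.03 ± 2.97 normalised counts in Control cells. *TGIF2*, a corepressor, averaged 130.1 ± 68.4 in Sox8OE and 64.3 ± 24.8 in Control cells (SD, n = 3 each, DESeq2 adjusted p = 0.302). In the fit without Sox8OE replicate 1, *MEIS1* and *PKNOX1*, named here after their values were seen, were called lower in Sox8OE, at -1.71 and -1.86 (DESeq2 adjusted p = 1.2e-12 and 4.1e-08). As above, 18.2% of all tested genes were called there.

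Of 16 regional genes known to act with or against Iroquois genes in vertebrate brain and neural tube, 15 were tested. DESeq2 called 0 higher and 3 lower, beside 4.28% of all tested genes called in either direction. At an unadjusted p under 0.05 it had 4, a threshold at which the DESeq2 share of all genes is not given here. The list's median log2 fold change was 0.28. Of the listed genes edgeR tested 14 and called 1, *DBX1* (adjusted p = 0.0430). In edgeR the adjusted p was 0.114 for *SHH* and 0.194 for *FEZF1*. With sample quality weights, limma voom called 6. Of all tested genes, edgeR called 0.276% and limma voom 20.0%. *DBX1*, a gene of neural progenitors, averaged 147 ± 77.8 normalised counts in Sox8OE and 1010.3 ± 110.01 in Control cells (log2 fold change -2.79 ± 0.44, DESeq2 adjusted p = 1.1e-07). *SHH*, the secreted signal of the ventral midline that represses *IRX3* in the neural tube, averaged 17.9 ± 13.5 in Sox8OE and 221 ± 41.2 in Control cells (-3.64 ± 0.71, DESeq2 adjusted p = 4.9e-05). *FEZF1*, a forebrain repressor, averaged 6.36 ± 4.10 in Sox8OE and 68.2 ± 38.9 in Control cells (-3.41 ± 0.86, DESeq2 adjusted p = 0.00428). *EN1* (1.65), *NKX2-2* (1.18), *SIX3* (0.95), *OTX2* (0.12), *PAX6* (-0.15), *GBX2* (1.72) and *OLIG2* (1.13) were not called. Without Sox8OE replicate 1, 1 gene of the list was called higher, *EN1* (2.13, DESeq2 adjusted p = 2.7e-05), and 3 lower, where 18.2% of all tested genes were called. Proneural genes were near the limit of detection. Of 7 listed, DESeq2 tested 3 and called 0, with 0 at an unadjusted p under 0.05. Of these genes edgeR tested 1 and called 0, and limma voom with sample quality weights called 1. *NEUROD1* averaged 14.5 ± 12.9 in Sox8OE and 6.02 ± 10.4 in Control cells. DESeq2 also called 0 proneural genes without Sox8OE replicate 1.

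Markers of the cells that the sort could hold differed between the samples. Surface ectoderm markers, listed for the tissue targeted, were all detected. They summed to between 44155 and 54407 normalised counts in Sox8OE and between 30710 and 36032 in Control cells. Most of that sum was *EPCAM*, at 16664 ± 9312 in Sox8OE and 16318 ± 447 in Control cells, and *KRT19*, at 14263 ± 2869 and 7029 ± 1087. DESeq2 called 2 of 10 higher, *KRT18* (2.13, adjusted p = 0.00218 in DESeq2 and 0.137 in edgeR) and *DLX6* (1.84, adjusted p = 0.0159 in DESeq2 and 0.189 in edgeR). edgeR called 0 of these 10, limma voom with sample quality weights called 4, and 8 had an unadjusted p under 0.05 in DESeq2. Among those 8 was *TP63*, which was lower in Sox8OE (-0.85, DESeq2 adjusted p = 0.200), and *GATA3* (0.33) and *EPCAM* (0.03) were not among them. Neural tube markers, 7 of 8 tested and 0 called by DESeq2 or edgeR, with 2 at an unadjusted p under 0.05 in DESeq2 and 1 called by limma voom with sample quality weights, summed to between 35552 and 53383 in Sox8OE and between 70811 and 81299 in Control cells. The neural tube genes with the smallest p were *HES5*, a Notch target that makes up most of that sum (-0.90, DESeq2 adjusted p = 0.0965), and *SOX21* (2.56, DESeq2 adjusted p = 0.116). Head mesenchyme markers summed to between 1337 and 1531 in Sox8OE and between 2306 and 3097 in Control cells. DESeq2 called 3 of 7 lower in Sox8OE, *TWIST1*, *ALX1* and *PDGFRA*, while *PRRX1* (1.37), *FOXC2* (1.38), *ALX4* (0.86) and *COL1A2* (0.40) had log2 fold changes above 0 and were not called, *FOXC1* was at the floor, and the list's median was 0.40. edgeR called 1 of the 7 and limma voom with sample quality weights called 4. Heart markers, 1 of 6 called lower by DESeq2 (*TBX5*), 0 by edgeR and 2 by limma voom with sample quality weights, ranged from 371 to 440.1 in Sox8OE and from 399 to 497 in Control cells. *TNNT2* (1.01) and *HAND2* (0.93) lay above 0, and *NKX2-5* (-1.24), *ACTC1* (-0.64) and *GATA4* (-0.13) below it, and DESeq2 called none of these. Endoderm markers, 1 of 4 called lower by DESeq2 (*FOXA1*), 0 by edgeR and 2 by limma voom with sample quality weights, ranged from 52.7 to 60.3 in Sox8OE and from 143 to 199 in Control cells. *FOXA2* (-2.27) and *TTR* (-2.54) also lay below 0. *HHEX* (1.03) and *SOX17* (3.64, few counts and no adjusted p) lay above 0, and DESeq2 called none of these. With Sox8OE replicate 1 left out, DESeq2 called 3 surface ectoderm markers higher, 1 neural tube marker higher, 1 head mesenchyme marker higher (*PRRX1*, 1.76, adjusted p = 0.00206) and 3 lower, 2 heart markers lower, 1 endoderm marker lower, and 1 vessel and blood marker higher. Beside these and the following marker counts, DESeq2 called 4.28% of all tested genes, or 18.2% without Sox8OE replicate 1. edgeR called 0.276% and limma voom with sample quality weights 20.0%. The counts at an unadjusted p in DESeq2 have no such share here. Since these are bulk samples, fewer cells of a type and less RNA per cell cannot be told apart.

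The summed vessel and blood markers were, like *IRX2* and *IRX4*, highest in Sox8OE replicates 2 and 3, but not every marker shared this. The 7 markers summed to 488, 2563 and 2229 normalised counts in Sox8OE replicates 1, 2 and 3, against 731, 494 and 1244 in Control replicates 1, 2 and 3. None was at 0 in every sample. DESeq2 called 0 of 7, with 1 at an unadjusted p under 0.05. Of the 7, edgeR tested 6 and called 0, and limma voom with sample quality weights called 1. *PECAM1* made up most of the sum, at 1573 ± 1112 in Sox8OE and 632 ± 240.0 in Control cells, while *KDR* averaged 58.5 ± 39.4 in Sox8OE and 54.3 ± 80.9 in Control cells and *CDH5* averaged 22.7 ± 20.2 in Sox8OE and 45.6 ± 41.0 in Control cells. *SOX18*, of endothelial cells, averaged 22.4 ± 6.22 in Sox8OE and 6.12 ± 3.39 in Control cells (DESeq2 adjusted p = 0.262). Without Sox8OE replicate 1 the DESeq2 log2 fold change rose for *PECAM1* (1.32 to 1.79), *LMO2* (0.57 to 1.08) and *ERG* (-0.32 to -0.02). It fell for *KDR* (0.11 to -0.52), *CDH5* (-1.01 to -1.25) and *TAL1* (0.40 to 0.05), and stayed at 1.85 for *SOX18*. The share of counts in ribosomal protein genes, 5.28%, 10.7% and 8.25% in Sox8OE replicates 1, 2 and 3 and 5.03%, 6.86% and 5.10% in Control replicates 1, 2 and 3, was also highest in Sox8OE replicates 2 and 3. The part of cell makeup or of library composition in the values of *IRX1*, *IRX2* and *IRX4* was not tested.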

How the data were processed

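RNA from 6 sorted samples was sequenced as paired reads of 75 bases. The authors aligned reads to galGal6 with STAR in the nf-core RNA-seq pipeline and deposited raw counts per Ensembl gene, and the submitters' processing notes name Trim Galore and featureCounts. The strand setting, the annotation release and the treatment of shared reads are not given in the sources used here. Libraries were amplified without molecular identifiers, so intervals and floors cover counting error only.

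Total counts ranged from 26326573 to 46586658. DESeq2 1.42.0 in R 4.3.3, the tool named in the study's methods, was run on all genes with group as the only term. It was also tried on simulated data with strong changes, a common dispersion and no outlying sample. That trial does not show how the fit does on the samples here. Of the genes with counts, 5379 had no adjusted p and entered no count of calls. Alternatives were edgeR 4.0.16 (quasi-likelihood), limma 3.58.1 (voom with sample quality weights), TMM factors or total counts as size factors, a filter of 10 counts in 3 samples, no Cook filter, a fold change threshold of 1, a replicate block and leaving out each sample. Scaled overlap and list counts without Sox8OE replicate 1 were added after seeing the data. Poisson intervals of counts are exact and hold 95%.

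The members and gene lists were chosen with earlier results of these data known. Genes named were the members, *SOX8*, the 3 nearest profiles of each member with a mean of at least 50 normalised counts, 3 flanking named genes on each side of each cluster, and, for each list, the genes called or otherwise the 2 with the smallest p. 1 gene under this rule is not reported here. Other names were added after their values were seen. Synonyms and gene order came from RefSeq (GRCg7b).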

Additional observations from a re-analysis of the deposited data

How the results depend on the processing

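The 1 Iroquois gene past both thresholds remained 1 in number with TMM factors, total counts, the count filter, no Cook filter and a fold change threshold of 1. It was 0 of 5 with edgeR, with 2 at an unadjusted p under 0.05, 2 with limma voom and sample quality weights, and 0 to 3 when single samples were left out, with 3 without Sox8OE replicate 1 and 0 without Sox8OE replicate 2, Sox8OE replicate 3, Control replicate 1 or Control replicate 3. At an adjusted p under 0.05 alone, also 1, it was 0 with edgeR, 3 with limma voom and sample quality weights, and 0 to 3 when single samples were left out. The share of all tested genes at that threshold is given only for the fit reported, at 5.24%. The direction of *IRX3* turned without Sox8OE replicate 3 (-0.0136, DESeq2 adjusted p = 0.997), and leaving out single samples gave from -0.0136 to 0.83. No other member changed direction. Total counts as size factors moved the median log2 fold change of all genes to 0.29, where it was 0.08, and *IRX1* to 2.12, so *IRX1* lay 1.83 above the median of all genes there and 1.79 above it in the fit reported. Over all genes, calls were 686 (4.28% of those tested) in the fit reported, 41 (0.276%) with edgeR and 2974 (20.0%) with limma voom and sample quality weights. They were 1056 (6.76%) with total counts, 1274 (8.15%) with the replicate block and 3050 (18.2%) without Sox8OE replicate 1. With 1 of the other samples left out they ranged from 248 (1.56%) to 653 (4.11%). *IRX3*, *IRX4* and *IRX5* had at most 94 raw counts in a sample, and *IRX6* could not be assessed at this depth.

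With the replicate block, 1 Iroquois gene was called, *IRX1* (1.70, DESeq2 adjusted p = 0.000139), and *IRX2*, *IRX3*, *IRX4* and *IRX5* were not. The labels say nothing of what a number shares. Deviations from the group means correlated at 0.316, 0.329 and 0.0677 between Sox8OE and Control samples of the same number. Sox8OE replicate 1 with Control replicate 2 gave -0.293, and Sox8OE replicate 2 with Control replicate 1 gave -0.314. Sox8OE replicate 3 correlated best with Control replicate 2, at 0.0967. The same number thus correlated best for Sox8OE replicates 1 and 2 and not for Sox8OE replicate 3. Seen from the Control side, each sample correlated best with the Sox8OE sample of its number. For Control replicate 3 this was 0.0677, against 0.0109 with Sox8OE replicate 1 and -0.0632 with Sox8OE replicate 2. The deviations in a group cancel for each gene, so these correlations are tied to each other and are not separate pieces of evidence. Whether the numbers pair the samples was not settled, and the fit reported was not paired.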
